A study of Mus musculus with 3 samples.

Results

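The genes described here are the cardiac myosin heavy chains Myh6, Myh7 and Myh7b, the antisense transcript Mhrt of the heavy chain locus, the light chains Myl2, Myl3, Myl4 and Myl7, and Mybpc3, which encodes cardiac myosin-binding protein C. They were taken by symbol, 9 of the 32285 genes listed in the files, with no threshold on a measured value. Their transcripts were counted by Visium spatial transcriptomics in 1 cryosection of the heart from each of 3 C57BL/6 mice, and the labels give no replicate section. The sham mouse had vehicle by oral gavage for 7 days and then an operation in which the needle was passed without tying the artery. The I/R (ischemia-reperfusion) mouse had the same vehicle, and its left anterior descending coronary artery (LAD) was tied for 30 min and reopened for 24 h. The SBP mouse had the same ischemia and reperfusion after 7 days of gavage with Shexiang Baoxin Pill (labelled MUSKARDIA), a compound preparation of traditional Chinese medicine. No untied mouse had SBP, so a difference between SBP and sham joins the drug and the injury. With 1 mouse and 1 section per condition, no comparison, SBP over I/R included, can tell the condition apart from the mouse, the section or its library. The mice were supplied at 8 weeks of age, and sex is not given in the sources used here.

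Each thick filament of the heart muscle sarcomere is built from myosin molecules of 2 heavy chains, each carrying an essential and a regulatory light chain, with myosin-binding protein C at regular intervals. The adult mouse ventricle makes mostly alpha myosin heavy chain (Myh6), the fast form, while beta myosin heavy chain (Myh7), the slower and more economical form, prevails before birth and returns in pressure overload, infarction and low thyroid hormone. Myl2 and Myl3 are the regulatory and essential light chains of the ventricle, Myl7 and Myl4 are their atrial counterparts, and Mhrt is a long non-coding RNA of the adult heart transcribed antisense to Myh7. The comparisons asked how these isoforms stood in each section, whether the balance of Myh7 to Myh6 differed between sections and between spots, and whether the balance moved with Ankrd1. Ankrd1, a stress-responsive ankyrin repeat protein of cardiomyocytes, is the gene by which the study outlined infarcted tissue.

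On mouse genome GRCm38, Myh6 (ENSMUSG00000040752, chr14:54941921-54966927) and Myh7 (ENSMUSG00000053093, chr14:54970684-54994626) follow each other on the minus strand with 3756 bases between them. Mhrt (ENSMUSG00000097652, chr14:54968678-54974349) lies on the plus strand, starts in that gap, and overlaps the 3′ part of Myh7 over 3666 bases, of which 484 are exonic in both genes. The promoters are shown because Myh6 and Mhrt were lower and Myh7 was higher in I/R than in sham, although all of them lie on this stretch of chromosome 14. The 250 bases before each start in RefSeq (build GRCm38.p6) are given 5′ to 3′ on the strand of the gene, at chr14:54966608-54966857 for Myh6, chr14:54994627-54994876 for Myh7 and chr14:54968537-54968786 for Mhrt. The gene positions above come from GENCODE, whose start is the same for this Myh7 window but not for the others. It is 54966927 for Myh6 (RefSeq 54966607), so that window lies within the gene as placed above. For Mhrt it is 54968678 (RefSeq 54968787), so that window runs into the gene. Distances below are to the RefSeq starts. Capitals mark the MCAT element, searched as CATTCC on both strands.
Myh6: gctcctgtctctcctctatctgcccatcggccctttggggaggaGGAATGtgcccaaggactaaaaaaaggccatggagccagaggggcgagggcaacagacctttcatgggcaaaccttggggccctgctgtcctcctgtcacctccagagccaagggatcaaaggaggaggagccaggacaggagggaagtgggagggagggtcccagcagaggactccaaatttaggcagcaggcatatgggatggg
Myh7: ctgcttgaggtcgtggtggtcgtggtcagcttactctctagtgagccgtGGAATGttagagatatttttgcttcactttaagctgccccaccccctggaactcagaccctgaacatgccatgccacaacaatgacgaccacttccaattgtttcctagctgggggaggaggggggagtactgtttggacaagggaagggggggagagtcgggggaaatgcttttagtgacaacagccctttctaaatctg
Mhrt: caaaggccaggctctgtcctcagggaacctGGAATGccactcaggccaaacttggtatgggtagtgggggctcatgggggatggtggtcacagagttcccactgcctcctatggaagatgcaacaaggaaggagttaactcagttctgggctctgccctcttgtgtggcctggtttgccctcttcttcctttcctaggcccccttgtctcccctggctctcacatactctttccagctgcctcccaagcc
Each of the 3 windows held the MCAT letters at 1 place, on the opposite strand to the gene. The element ended 201 bases before the start in Myh6, 196 bases before it in Myh7 and 215 bases before it in Mhrt. Of 32851 mouse promoter windows of the same length, 12.6% held it. A GATA site, searched as AGATAA on both strands, was in none of these 3 windows, against 9.99% of all windows. The TATA box, searched likewise as TATAAA, was in none of them either, against 12.4% of all windows. RefSeq lists another start of Myh7 downstream of the one shown, whose window held none of the 3 motifs. The same search of the other members found the MCAT letters in the windows of Myl3 and Myl7 as well. It found AGATAA in windows of Myh7b and Myl2 and TATAAA in another window of Myl2. The windows of Myl4 and Mybpc3 held none of the motifs.

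Each of the 3 heavy chain genes carries a microRNA in an intron, on its own strand, and Myh6, Myh7 and Myh7b are therefore known as myosin genes that encode microRNAs. The mature arms are shown because the host transcripts were measured here while the microRNAs were not: a poly(A) library does not count mature microRNAs. The RefSeq sequences are given with the seed (bases 2 to 8) in capitals, miR-208a-3p from Myh6 (chr14:54949072-54949093), miR-208b-3p from Myh7 (chr14:54975710-54975731) and miR-499-5p from Myh7b (chr2:155622893-155622913).
mmu-miR-208a-3p: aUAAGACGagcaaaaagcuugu
mmu-miR-208b-3p: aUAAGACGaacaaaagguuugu
mmu-miR-499-5p: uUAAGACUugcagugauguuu
The arms of miR-208a and miR-208b shared the seed UAAGACG and were the same at 19 of 22 bases, with G10A, A16G and C18U from miR-208a to miR-208b, counted from the 5′ end. The seed of miR-499-5p was UAAGACU. The other genes are on chr2:91118144-91136516 (Mybpc3, ENSMUSG00000002100), chr2:155611212-155634307 (Myh7b, ENSMUSG00000074652), chr5:122100951-122113472 (Myl2, ENSMUSG00000013936), chr9:110741861-110769798 (Myl3, ENSMUSG00000059741), chr11:104550663-104595753 (Myl4, ENSMUSG00000061086) and chr11:5896637-5898782 (Myl7, ENSMUSG00000020469).

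The sham, I/R and SBP sections kept 2234, 2082 and 1960 spots once those below 200 detected genes had been removed, with 21631280 to 30238530 unique molecular identifiers (UMIs, counted molecules) per section and a median of 10645 to 14672 UMIs per spot. A spot covers a small piece of tissue that can hold several cells, so it cannot be told apart whether a lower level came from fewer cardiomyocytes or from less RNA in each. The sections shared 1207 to 1568 spot barcodes pairwise, since Visium slides use the same barcode set, and they count as separate libraries. Levels are UMIs per 1000000 UMIs of the section (CPM), which count 3′ ends and therefore need no correction for transcript length. Together the 9 genes took up 2.67% (sham), 1.99% (I/R) and 2.57% (SBP) of all UMIs. The atrial genes Sln and Bmp10 were near 0 (3 UMIs of Sln in sham, 0 in the injured sections, and 0 of Bmp10), while 11 of 11 cardiomyocyte markers were detected, at a summed level of 46316 (sham), 35410 (I/R) and 41432 CPM (SBP). Of the other atrial markers, Kcnj3, a potassium channel subunit, had 30.3, 19.1 and 26.6 CPM and Stard10 had 19.5, 12.2 and 16.3 CPM (sham, I/R and SBP). Mitochondrial transcripts took 48.6% (sham), 44.3% (I/R) and 46.3% (SBP) of the UMIs, and CPM counts them in the denominator. All 95% intervals below cover counting error only, and those of percentages of spots take the spots as independent. With 1 section per condition no test between conditions exists.

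Myh7 was the member that differed most, with a higher level in I/R than in sham and a still higher level in SBP. Its level was 100.1 CPM (sham), 302 CPM (I/R) and 596 CPM (SBP), from 2515, 9130 and 12892 UMIs. On the log2 scale the difference was 1.59 (95% interval 1.53 to 1.66) for I/R over sham, 0.98 (0.94 to 1.02) for SBP over I/R and 2.57 (2.51 to 2.64) for SBP over sham, or 3.02-fold, 1.97-fold and 5.95-fold. The intervals of the 3 levels did not overlap, and the comparisons share sections with each other. Among all genes that reached 50 UMIs over both sections, Myh7 was the 340th highest of 12231 for I/R over sham, the 49th of 12151 for SBP over I/R and the 8th of 11768 for SBP over sham. By level it stood 728th among nuclear genes (sham), 289th (I/R) and 149th (SBP).

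Myh6, the main heavy chain of the adult mouse ventricle, was among the 5 most abundant nuclear transcripts of every section. Its level was 6917 CPM (sham), 5054 CPM (I/R) and 5698 CPM (SBP). I/R was lower than sham by a log2 difference of -0.45 (-0.46 to -0.44), and SBP was above I/R by 0.17 (0.16 to 0.18), a direction that turned to -0.054 when levels were taken per UMI of the cardiomyocyte markers. SBP stayed below sham at -0.28 (-0.29 to -0.27). The summed level of both heavy chains was 7017 CPM (sham), 5356 CPM (I/R) and 6294 CPM (SBP).

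Myh7 made up 1.43% (95% interval 1.37% to 1.48%) of the Myh6 plus Myh7 UMIs of sham. The same share was 5.64% (5.53% to 5.75%) for I/R, and for SBP 9.47% (9.31% to 9.63%). For each Myh7 UMI the sections thus held 69.1 (sham), 16.7 (I/R) and 9.56 (SBP) UMIs of Myh6. The ratio of Myh7 to Myh6 needs no denominator of the whole library, and it was 4.13-fold higher in I/R than in sham (log2 2.05, 1.98 to 2.11), 1.75-fold higher in SBP than in I/R (log2 0.81, 0.77 to 0.85) and 7.23-fold higher in SBP than in sham (log2 2.85, 2.79 to 2.92). The paralogs are alike enough to share reads: of the stretches of 91 bases (the number of cycles of read 2) in the last 500 bases of the longest annotated transcript, 27.1% of those of Myh6 also occurred in Myh7 transcripts and 36.1% of those of Myh7 in Myh6 transcripts. How such reads were counted is not given in the sources used here, so the shares are uncertain in level. No stretch of this length was shared between the other isoform pairs examined (Myl3 with Myl4, Myl2 with Myl7, Myh7b with Myh7).

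Of the 9 members, 8 reached 50 UMIs over each pair of sections, and Myl7 did not. Past a 1.5-fold difference, 1 of the 8 was higher in I/R than in sham (Myh7), as were 23.2% of all genes, and 2 were lower (Mhrt and Myh7b), as were 3.49% of all genes. In SBP over I/R, 1 of the 8 was higher (Myh7, against 1.95% of all genes) and 0 were lower (against 13.8%). In SBP over sham, 1 was higher (Myh7, against 5.31%) and 0 were lower (against 2.77%). The median log2 difference of the 8 was -0.47 for I/R over sham, 0.38 for SBP over I/R and -0.13 for SBP over sham, while the median of all genes was 0.24, -0.17 and 0.082. TMM (trimmed mean of M values) factors place most genes near 0 by design. With them the median of all genes was 0.0012 in I/R over sham, -0.0062 in SBP over I/R and 0.0034 in SBP over sham. Each CPM difference between sections includes the median shift of its own comparison (0.24, -0.17 and 0.082). Whether that shift is one of scaling or of RNA composition was not tested. With TMM factors the genes past 1.5-fold in I/R over sham split into 1552 higher and 1159 lower (57.2% higher) in place of 2833 and 427 (86.9%). The split was 508 and 1024 in SBP over I/R in place of 237 and 1679, and 458 and 458 in SBP over sham in place of 625 and 326. The members' own counts for I/R over sham turned on this choice: with TMM factors Myh6 (-0.69), Myl2 (-0.77) and Mybpc3 (-0.73) passed 1.5-fold on the lower side beside Mhrt (-0.98) and Myh7b (-0.84), while per UMI of the cardiomyocyte markers Mhrt (-0.36) and Myh7b (-0.21) no longer passed it. Myh7 passed it under both, at 1.35 and 1.98.

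**Figure D1:**
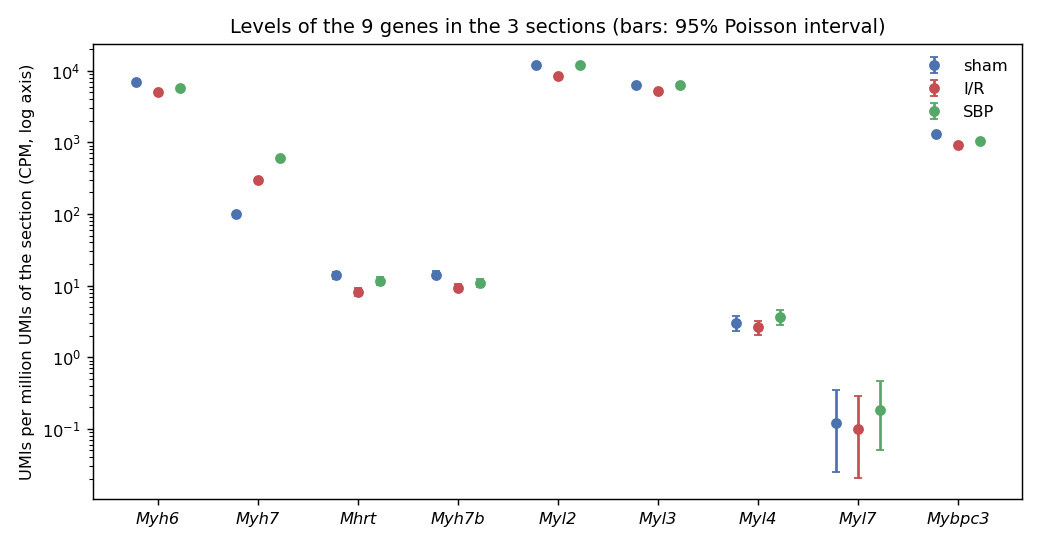
Level of each of the 9 genes (CPM, log axis) in the sham, I/R and SBP sections, with 95% Poisson intervals that are smaller than the points for abundant genes. Myh7 stands at 100.1, 302 and 596 CPM, while Myl4 stays under 4 CPM and Myl7 rests on 3 or 4 UMIs in every section.

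Mhrt had a level of 13.9 CPM (sham), 8.27 CPM (I/R) and 11.6 CPM (SBP), from 348, 250 and 251 UMIs. It was lower in I/R than in sham by -0.74 (95% interval -0.99 to -0.51), higher in SBP than in I/R by 0.49 (0.23 to 0.75) and lower in SBP than in sham by -0.26 (-0.50 to -0.017) on the log2 scale. On the CPM scale Mhrt thus differed between the sections in the direction of Myh6, whose SBP over I/R difference changed sign per UMI of the cardiomyocyte markers. The ratio of Mhrt to Myh6 differed by -0.29 (-0.53 to -0.057) in I/R over sham and by 0.32 (0.063 to 0.57) in SBP over I/R. In SBP over sham it differed by 0.024 (-0.21 to 0.26), an interval that included 0. Against Myh7 the log2 difference of the Mhrt ratio was -2.34 (-2.58 to -2.09) for I/R over sham and -2.83 (-3.07 to -2.59) for SBP over sham, with 7.23 Myh7 UMIs per Mhrt UMI in sham and 51.4 in SBP. Because exons of Mhrt and Myh7 overlap on opposite strands and the strand setting of the counting is not given in the sources used here, a part of the Mhrt UMIs could belong to Myh7.

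Myh7b, a slow myosin heavy chain gene that the heart transcribes at a low level, had 14.3 CPM (sham), 9.39 CPM (I/R) and 10.9 CPM (SBP), from 358, 284 and 236 UMIs. I/R was below sham by -0.60 (-0.83 to -0.37), and the interval of SBP over I/R, 0.22 (-0.039 to 0.47), included 0. Myh7b therefore did not follow Myh7: the ratio of Myh7b to Myh7 was -2.96 (-3.20 to -2.71) in SBP over sham on the log2 scale.

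The ventricular light chains and Mybpc3 were lower in I/R than in sham and differed less than Myh7. Myl2 was the most abundant nuclear transcript of the sham and SBP sections, at 12116 CPM (sham), 8417 CPM (I/R) and 12055 CPM (SBP). I/R was below sham by -0.53 (-0.53 to -0.52) and SBP above I/R by 0.52 (0.51 to 0.53), and between SBP and sham the difference was -0.0072 (-0.015 to 0.00035). Myl3 had 6238 CPM (sham), 5148 CPM (I/R) and 6287 CPM (SBP), with -0.28 (-0.29 to -0.27) for I/R over sham, which turned to 0.11 per UMI of the cardiomyocyte markers, and 0.29 (0.28 to 0.30) for SBP over I/R. On the CPM scale Myl2 in SBP did not differ from sham beyond its counting error, with -0.086 under TMM factors and 0.15 per UMI of the cardiomyocyte markers, and Myl3 was 0.011 (0.00057 to 0.022) above it, a difference whose sign turned under 4 of the alternatives. Myl2 and Myl3 did not differ alike, since Myl2 made up 66.0% (sham), 62.0% (I/R) and 65.7% (SBP) of their sum.

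The light chains set against the heavy chains gave another balance. Each UMI of Myh6 plus Myh7 was matched by 1.73 (sham), 1.57 (I/R) and 1.92 (SBP) UMIs of Myl2, and by 0.889, 0.961 and 0.999 UMIs of Myl3. Mybpc3 had 1303 CPM (sham), 927 CPM (I/R) and 1055 CPM (SBP), and its ratio to Myh6 was nearly the same in all sections, with 5.31, 5.45 and 5.40 Myh6 UMIs per Mybpc3 UMI. The log2 differences of that ratio were -0.039 (-0.064 to -0.014) for I/R over sham and 0.014 (-0.014 to 0.041) for SBP over I/R.

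The atrial light chains were almost absent. Myl7 had 3 UMIs (sham), 3 UMIs (I/R) and 4 UMIs (SBP), which is 0.00099%, 0.0012% and 0.0015% of Myl7 plus Myl2 UMIs, and a count at this floor gives no fold. Myl4, the essential light chain of the atrium and of the fetal ventricle, had 75, 79 and 78 UMIs. Of Myl4 plus Myl3 it was 0.048% (0.038% to 0.060%) for sham, while I/R had 0.051% (0.040% to 0.063%) and SBP had 0.057% (0.045% to 0.072%). These intervals overlap, and the log2 difference of the Myl4 to Myl3 ratio was 0.26 (-0.20 to 0.72) for SBP over sham. Over the same sections the interval of the Myh7 to Myh6 ratio began at 2.79.

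Genes that work with the thick filament or are known to control the myosin genes gave a background to these values. Past 1.5-fold, 23.2% of all genes were higher and 3.49% lower in I/R over sham. These shares were 1.95% and 13.8% in SBP over I/R, and 5.31% and 2.77% in SBP over sham. Of 20 thick filament partners, 16 were counted in I/R over sham, with 1 higher past 1.5-fold (Hspb1, a small heat shock protein, log2 1.46) and 2 lower (Mylk4, a kinase of the myosin light chain kinase family, -1.005, and Ppp1r12b, the cardiac myosin phosphatase subunit, -0.68), at a median of -0.17. In SBP over I/R 0 were higher and 1 was lower (Hspb1, -0.72), at a median of 0.23. In SBP over sham 2 were higher (Hspb1, 0.74, and Myom2, an M-band protein, 0.83) and 1 was lower (Mylk4, -1.26), at a median of 0.063. Mylk4 had 48.8 CPM (sham), 24.3 CPM (I/R) and 20.4 CPM (SBP), and Myom2 had 115, 143 and 204 CPM, so Myom2 had the order of sections that Myh7 had. With TMM factors, tried for these lists after the values were seen, Smyd1 (-0.67) passed 1.5-fold on the lower side in I/R over sham, and the counts were 3 higher and 0 lower in SBP over I/R (Myom2, 0.68, Mylk3, 0.62, and Trim54, 0.63, while Hspb1, -0.56, no longer passed) and 2 higher and 1 lower in SBP over sham. Of all genes, 508 of 12151 were then higher and 1024 lower in SBP over I/R. In SBP over sham 458 of 11768 were higher and 458 lower.

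Of the 21 regulators of cardiac myosin genes, 1 was higher past 1.5-fold in I/R over sham (Srf, 0.65) and 1 was lower (Tbx5, -0.65), at a median of -0.045. Here and for the other myosins below, the shares of all genes higher and lower were 23.2% and 3.49% in I/R over sham. They were 1.95% and 13.8% in SBP over I/R, and 5.31% and 2.77% in SBP over sham. Srf, serum response factor, stood lower for SBP than for I/R (-1.04) and was the only one of the 21 past 1.5-fold in that comparison, and Klf15, a repressor of cardiac growth genes, was the only one in SBP over sham (0.60). Thra, the thyroid hormone receptor that drives Myh6, differed by -0.16 (-0.30 to -0.025) in I/R over sham and by 0.10 (-0.043 to 0.24) in SBP over sham. Tead1, the main factor of the MCAT element in muscle, had 64.1 CPM (sham), 62.1 CPM (I/R) and 69.5 CPM (SBP). Of 16 myosins of other muscle and of non-muscle cells, 9 were counted in I/R over sham, with 1 higher (Myl12a, a non-muscle regulatory light chain, 0.66) and 0 lower. In SBP over I/R, 1 of 10 was higher (Mylpf, of fast skeletal muscle, 0.71 on 28 and 24 UMIs, with an interval that included 0) and 1 was lower (Myh11, the smooth muscle heavy chain, -0.61). In SBP over sham, 0 of 9 were higher and 2 were lower (Myh11, -0.76, and Myl9, the smooth muscle regulatory light chain, -0.85). With TMM factors several of these calls were lost. Srf (0.41) and Myl12a (0.42) no longer passed 1.5-fold in I/R over sham, nor did Myh11 (-0.45) in SBP over I/R or Klf15 (0.52) in SBP over sham, while Srf in SBP over I/R (-0.88) and Tbx5 in I/R over sham (-0.89) still passed it. Mef2c (-0.60) and Hopx (-0.64) then passed it on the lower side in I/R over sham and Tbx5 (0.71) on the higher side in SBP over I/R.

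Markers of other cells moved between the sections as well. The summed level of 8 myeloid markers was 470 CPM (sham), 1069 CPM (I/R) and 578 CPM (SBP), that of 6 fibroblast markers was 1592, 1204 and 1467 CPM, and that of 12 injury genes was 606, 2337 and 1083 CPM. Gsn alone gave 823, 534 and 864 CPM of the fibroblast sums, so their order is largely its own. Of the 6 fibroblast markers, 2 were higher and 4 lower in I/R than in sham. In SBP over I/R 3 were higher and 3 lower. The part of tissue composition in the Myh7 differences was not tested. Per UMI of the 11 cardiomyocyte markers the Myh7 log2 difference was 1.98 (I/R over sham), 0.75 (SBP over I/R) and 2.73 (SBP over sham). The markers differed themselves, with 11 of 11 lower in I/R than in sham and 10 higher in SBP than in I/R. This unit therefore cannot separate fewer cardiomyocytes from less RNA in each. Of the 6 atrial markers, Nppa gave most UMIs (458, 1146 and 1380 CPM of sums of 509, 1179 and 1424 CPM), and it encodes a natriuretic peptide that the ventricle also makes under stress. The median log2 differences of I/R over sham, SBP over I/R and SBP over sham were -0.36, 0.24 and -0.15 for the cardiomyocyte markers, -0.32, 0.44 and 0.16 for the atrial, -0.24, -0.18 and -0.28 for the fibroblast, 0.13, -0.14 and -0.090 for the endothelial, 1.33, -0.99 and 0.29 for the myeloid, 0.27, -0.37 and -0.15 for the vessel smooth muscle and 0.55, -0.072 and 0.48 for the blood markers, and 2.18, -1.14 and 0.76 for the injury genes.

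Spots were then compared after each was thinned at random to 6500 UMIs, so that depth in all UMIs was the same, which left out 132 (sham), 202 (I/R) and 213 (SBP) shallower spots. At least 1 Myh7 UMI was found in 38.2% (95% interval 36.2% to 40.4%) of the thinned sham spots, 69.2% (67.1% to 71.3%) of those of I/R and 89.98% (88.5% to 91.4%) of those of SBP, against 51.6%, 84.3% and 94.9% of spots before thinning. A UMI of Sln, a gene of the atrium, was found in 0.0951% of thinned sham spots and in 0 of 1880 I/R and 0 of 1747 SBP spots, which allows up to 0.196% and 0.211% of spots. The median Myh6 count per thinned spot was 46 (sham), 36.5 (I/R) and 39 (SBP), and the 5th percentile was 27, 6 and 16 UMIs. I/R thus differed from sham most in its spots with the least Myh6. Mhrt was in 8.94%, 4.95% and 7.61% of thinned spots, and Myl4 in 1.47%, 1.17% and 2.29%.

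Among thinned spots with at least 20 UMIs of Myh6 plus Myh7, the Myh7 share had a median of 0% (sham), 3.39% (I/R) and 7.5% (SBP). This minimum kept 2077, 1516 and 1644 spots, since 25, 364 and 103 spots had fewer UMIs of these genes. The 95th percentile of the share in sham was 5.41%, and the spots past it were 4.96% of sham by construction, 35.4% (32.9% to 37.8%) of I/R and 63.9% (61.6% to 66.3%) of SBP. For SBP the 95th percentile stood at 22.9%, and for I/R at 19.4%. The 99th percentile was 10.51% (sham), 41.4% (I/R) and 35.4% (SBP) in thinned spots, and 33.0% (I/R) and 33.3% (SBP) without thinning, so its order between the injured sections turned with the thinning. Myh7 exceeded Myh6 in 0 spots of sham, which allows up to 0.177%, in 9 spots of I/R (0.594%) and in 3 spots of SBP (0.182%). Shares varied more between spots than counting alone gives, with a variance of 1.78 (sham), 4.85 (I/R) and 3.23 (SBP) times the binomial value. Before thinning the variance was 2.58, 9.28 and 4.82 times that value. The intervals of the shares of whole sections do not include this spread. At a depth of 3000 UMIs the shares of spots above the sham percentile were 21.9% in I/R and 53.2% in SBP, so their size depends on depth while SBP stayed above I/R.

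**Figure D2:**
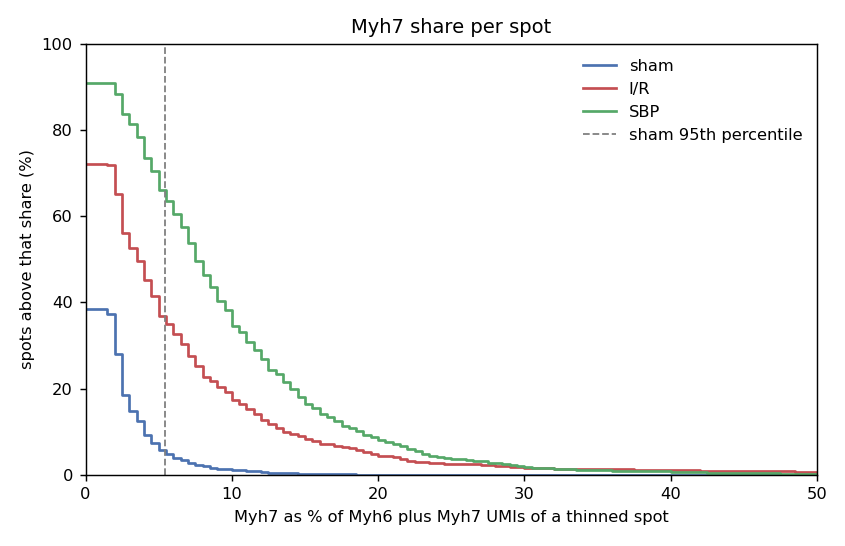
Percentage of thinned spots (vertical axis) whose Myh7 share of Myh6 plus Myh7 UMIs lies above the value on the horizontal axis, for each section, with the sham 95th percentile (5.41%) as a dashed line. The SBP curve lies above the I/R curve up to a share of 31%, with 63.9% and 35.4% of spots past the dashed line, the curves cross between there and 33.5%, and the I/R curve lies above at higher shares, with 1.06% against 0.67% of spots past a share of 41%.

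Ankrd1-high spots were those with more Ankrd1 per 10000 UMIs than the 95th percentile of sham spots (27.0). They made up 112 of 2234 spots in sham (5.01%, by construction), 479 of 2082 in I/R (23.0%) and 326 of 1960 in SBP (16.6%). The Ankrd1 level of the whole section was 879 CPM (sham), 1715 CPM (I/R) and 1367 CPM (SBP). Spots are not replicates, so the values below compare pools of spots within a section. In sham, the summed cardiomyocyte markers were 37158 CPM in the Ankrd1-high and 47042 CPM in the other spots, in I/R 29741 and 37509 CPM, and in SBP 35510 and 42742 CPM. The myeloid markers were 672 and 455 CPM in sham, 1138 and 1043 CPM in I/R, and 775 and 535 CPM in SBP. The injury genes were 1573 and 529 CPM in sham, 3114 and 2049 CPM in I/R, and 1821 and 919 CPM in SBP. The blood markers were lower in Ankrd1-high spots, with 887 and 3044 CPM in sham, 3408 and 4363 CPM in I/R, and 2759 and 4103 CPM in SBP. Ankrd1-high spots were also deeper, with a median of 14927 against 10501.5 UMIs in sham, 17348 against 14103 in I/R and 11989.5 against 10453 in SBP, and the part of these measures in the following values was not tested.

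Myh7 was higher in Ankrd1-high spots of I/R, while in SBP its difference between the kinds of spot had an interval that included 0. In I/R its level was 415 CPM in Ankrd1-high and 260 CPM in other spots, a log2 difference of 0.67 (95% interval 0.61 to 0.74). In SBP it was 580 and 600 CPM, a difference of -0.049 (-0.11 to 0.017), and in sham 115 and 98.95 CPM, a difference of 0.22 (0.0058 to 0.42). The grouping gene matters: when spots were grouped by the 12 injury genes in place of Ankrd1, the Myh7 difference was 0.10 in I/R, and the sham value changed sign to -0.069. The SBP value turned to 0.22 per UMI of the cardiomyocyte markers and to 0.092 and 0.044 with the sham 90th and 99th percentile of Ankrd1 as the threshold. Of all Myh7 UMIs, 37.1% lay in Ankrd1-high spots of I/R, which held 27.0% of the UMIs, and 17.6% in those of SBP, which held 18.1%.

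Myh6, Mhrt, Myh7b, Myl2, Myl3 and Mybpc3 had lower levels in Ankrd1-high spots of all 3 sections. Myh6 was at 4877 and 7079 CPM in sham, 3321 and 5696 CPM in I/R, and 3732 and 6133 CPM in SBP, with log2 differences of -0.54, -0.78 and -0.72. Myl2 differed by -0.77, -0.55 and -0.45, and Myh7b by -0.86, -1.05 and -1.18 in the same order. Mhrt differed by -1.58 (-2.72 to -0.64) in sham, where the Ankrd1-high spots held 9 of its UMIs, by -0.64 (-1.13 to -0.18) in I/R and by -0.82 (-1.44 to -0.25) in SBP. Of these lower members Myl3 and Mybpc3 differed least, from -0.25 to -0.38 and from -0.29 to -0.39, and both turned to higher values in sham (0.094 and 0.052) per UMI of the cardiomyocyte markers. Myl4 had 5 of 75 UMIs in the Ankrd1-high spots of sham, 21 of 79 in those of I/R and 4 of 78 in those of SBP, where its log2 difference was -2.03 (-3.95 to -0.62), too few for the counts that follow.

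Of the 7 members with at least 200 UMIs in a section, 0 were higher past 1.5-fold in Ankrd1-high spots of sham (22.7% of all genes) and 3 were lower (3.44% of all genes). The lower ones in sham were Myl2, Mhrt (9 UMIs in Ankrd1-high spots) and Myh7b (15 UMIs there). In I/R 1 was higher (Myh7, against 11.3%) and 3 were lower (Myh6, Mhrt and Myh7b, against 2.85%). In SBP 0 were higher (against 12.6%) and 3 were lower (Myh6, Mhrt and Myh7b, against 3.38%). The median difference of the 7 was -0.54 (sham), -0.55 (I/R) and -0.45 (SBP), while that of all genes was 0.27, 0.25 and 0.19. Of the thick filament partners, 2 of 15 were higher in Ankrd1-high spots of sham and of I/R (Hspb1, and Mybpc2, the fast skeletal form of myosin-binding protein C), and 1 of 14 in SBP (Hspb1). Hspb1 stood higher by 0.64, 1.66 and 1.68 in sham, I/R and SBP, and Mybpc2 by 2.29 in sham and 1.20 in I/R. In SBP Mybpc2 had 194 UMIs and so was not counted, and it stood higher there by 1.22 (0.77 to 1.66). Mylk4 (-0.90, -0.67 and -0.70) and Myom2 (-1.07, -0.60 and -0.61) were lower in all 3 sections, and Obsl1 in SBP (-0.66). Of the regulators, Hopx, a homeodomain protein of cardiomyocytes, was lower in all 3 sections (-0.84, -1.19 and -1.03) and Klf15 in I/R (-0.65), and 0 were higher. Of the other myosins, Myl1 was higher in sham (0.76), Myl12a in I/R (0.76) and SBP (0.68) and Myh9, a non-muscle heavy chain, in SBP (0.70), while Myh11 was lower in SBP (-0.94).

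**Figure D3:**
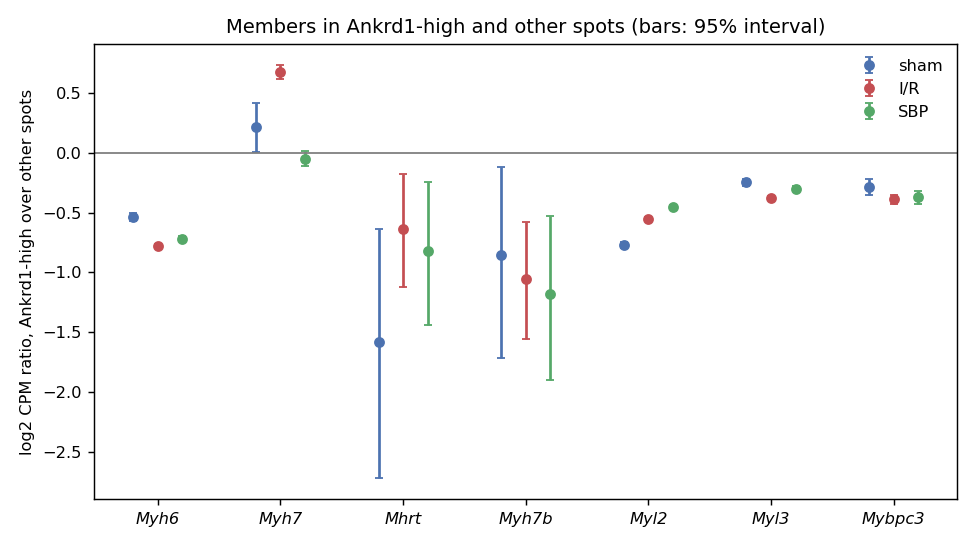
Log2 ratio of CPM in Ankrd1-high over other spots for the 7 members with at least 200 UMIs in each section, with exact 95% intervals. Myh7 in I/R stands at 0.67 above the zero line, Myh7 in SBP at -0.049 by it, and Myh6, Mhrt, Myh7b and Myl2 stand below it in every section.

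The Myh7 share of the heavy chains was higher in Ankrd1-high spots of each section. It was 2.30% against 1.38% in sham, 11.1% against 4.37% in I/R and 13.4% against 8.91% in SBP, and the log2 difference of the Myh7 to Myh6 ratio was 0.75 (0.55 to 0.96), 1.45 (1.39 to 1.52) and 0.67 (0.60 to 0.74). Between sections, the Myh7 level was higher in SBP than in I/R by 1.21 (1.16 to 1.25) within other spots and by 0.48 (0.40 to 0.56) within Ankrd1-high spots. Over sham, Myh7 in other spots was higher by 1.39 (1.32 to 1.46) in I/R and by 2.60 (2.53 to 2.66) in SBP. Among members with at least 50 UMIs over both sections and past 1.5-fold, within other spots Myh7 was higher and Mhrt lower in I/R over sham (18.8% and 2.71% of all genes), Myh7 and Myl4 were higher and 0 members lower in SBP over I/R (2.01% and 12.2%), and Myh7 was higher and 0 were lower in SBP over sham (4.86% and 2.58%). Within Ankrd1-high spots, Myh7 was higher and Myh7b lower in I/R over sham (16.9% and 7.24%), Myh7b on 43 and 15 UMIs at -0.63 with an interval (-1.50 to 0.33) that included 0. There 0 members passed the threshold either way in SBP over I/R (2.23% and 12.5%), although Myh7 passed it, at 0.86, with spots grouped by the injury genes and stood at 0.23 per UMI of the cardiomyocyte markers, and Myh7 was higher and 0 were lower in SBP over sham (6.16% and 8.01%). Myl4 in other spots stood at 58 UMIs in I/R and 74 in SBP, a log2 difference of 0.67 (0.15 to 1.19).

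When spots were cut into 5 bins at the 25th, 50th, 75th and 95th sham percentile of Ankrd1, the sections differed already in the lowest bin. That bin had 64.4 CPM of Myh7 in 559 sham spots, 128 CPM in 250 I/R spots and 424 CPM in 370 SBP spots. SBP was 6.59-fold above sham there (log2 2.72, 2.56 to 2.89) and 3.32-fold above I/R (1.73, 1.59 to 1.88), and I/R was 1.98-fold above sham (0.99, 0.79 to 1.19). Myh6 in the same bin was at 7416, 6812 and 6916 CPM, and its difference between SBP and I/R was 0.022 (-0.0027 to 0.047). The higher Myh7 of SBP was thus present in spots with little Ankrd1 and near-equal Myh6.

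Across the bins, Myh7 in I/R went from 128 through 163, 252 and 382 to 415 CPM, so that the highest bin was 3.25-fold above the lowest (1.70, 1.56 to 1.84). In SBP it went from 424 through 525 to 733 CPM in the third bin and then to 681 and 580 CPM, so that the highest level lay in the third bin and the highest bin was 1.37-fold above the lowest (0.45, 0.36 to 0.54). In sham it went from 64.4 through 69.8, 123 and 141 to 115 CPM. The Myh7 share was higher in each successive bin of every section, at 0.861% and 2.30% in the lowest and highest bin of sham, 1.84% and 11.1% in those of I/R, and 5.78% and 13.4% in those of SBP. In sham, however, the interval of the lowest bin (0.776% to 0.953%) overlapped that of the next (0.845% to 1.03%). The interval of the highest sham bin (2.01% to 2.63%) likewise overlapped that of the bin before it (2.08% to 2.40%). Myh6 had its lowest level in the highest Ankrd1 bin of each section, with a log2 difference to the lowest bin of -0.60 (sham), -1.04 (I/R) and -0.89 (SBP). Mhrt in the lowest bin differed by -0.24 (-0.79 to 0.30) in I/R over sham and by 0.41 (-0.16 to 0.99) in SBP over I/R, and both intervals included 0.

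**Figure D4:**
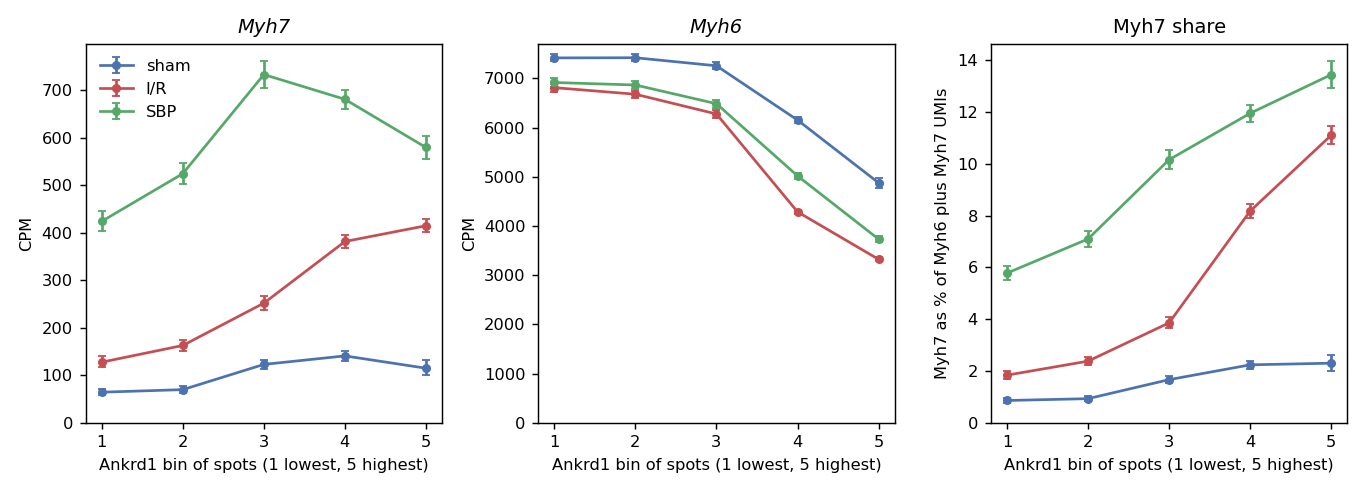
Myh7 CPM, Myh6 CPM and Myh7 share of Myh6 plus Myh7 UMIs (vertical axes, from 0) over 5 bins of spots with increasing Ankrd1 (horizontal axes) in each section, with 95% intervals. Myh7 starts at 64.4, 128 and 424 CPM in the lowest bin of sham, I/R and SBP, and its SBP curve has its highest point, 733 CPM, in the third bin.

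Ankrd1-high spots and spots with a high Myh7 share were partly the same spots in I/R. Before thinning, 715 I/R spots and 1291 SBP spots had a Myh7 share above 5%, the sham 95th percentile at full depth. The share was taken only in spots with at least 20 UMIs of Myh6 plus Myh7. The 27 (sham), 353 (I/R) and 119 (SBP) spots under this minimum count as not high. They stay in the totals of Ankrd1-high and other spots, so the percentages of those totals can be too low, unequally between sections. In I/R, 300 spots were high in both, which is 42.0% of the spots with a high share and 62.6% of the Ankrd1-high spots. In SBP, 247 were high in both, or 19.1% and 75.8%, and 1044 of the spots outside the Ankrd1-high group (63.9% of them) had a high share, against 25.9% in I/R and 4.62% in sham.

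The genes with the pattern most like a member over thinned spots were found by Spearman correlation among genes with at least 0.5 UMIs per spot, which is a description over spots of 1 section that share a library and cell composition. For Myh7 the first 5 genes in sham were Ankrd1 (0.14 over 2102 spots), Mgp, Tnnc1, Acta1 and Crip1. In I/R they were Actc1, cardiac actin (0.30 over 1880 spots), Ankrd1 (0.29), Tnnc1, Nppa and Csrp3. SBP had Actc1 again (0.30 over 1747 spots), followed by Mgp, Nppa, Mb and Tpm1. Ankrd1 was the 145th of 987 genes for Myh7 in SBP, at 0.071. For Myh6 the first 2 genes were Myl2 and Tnni3, cardiac troponin I, in all 3 sections, with a Myl2 value of 0.44 (sham), 0.79 (I/R) and 0.63 (SBP), while Myh6 and Myh7 had 0.038, -0.013 and 0.12. Myl2 had Fabp3 or Tnni3 first, and Ankrd1 was among its lowest genes (-0.41, -0.59 and -0.56). Myl7 had too few UMIs for this measure.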

How the data were processed

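Visium libraries of 1 heart section from each of the sham, I/R and SBP mice were used. The authors deposited, per section, a gene by spot table of raw UMI counts made with Space Ranger 1.3.0 on mm10, as the file headers and the submitters' processing notes give it; the study's methods name another version and a human reference. How strand and reads shared by paralogs were handled is not given in the sources used here. Spots were filtered at 200 detected genes, and UMIs were summed per section and divided by all UMIs (CPM). Intervals (level 95%) are exact Poisson for levels, Clopper-Pearson for shares and exact conditional binomial for log2 ratios, and a Wald interval on the 4 counts for a ratio of ratios. They cover counting error only, and for percentages of spots they take the spots as independent. With 1 section per group no test was made. A gene was called at a 1.5-fold difference with at least 50 UMIs over both sections, or 200 UMIs in a section for Ankrd1-high against other spots, as in the list counts of partners, regulators and other myosins. Spots were thinned without replacement to 6500 UMIs, the 10th percentile of depth rounded down to a multiple of 500. Python 3.11.15 (numpy 2.4.6, scipy 1.17.1, pandas 2.3.3, matplotlib 3.10.9) was used, with edgeR 4.0.16 for TMM factors and DESeq2 1.42.0 for size factors. Only the log2 ratio intervals were tested on simulated data, with Poisson section sums that lack the extra spread between spots. Thinning, spot shares, ratios of ratios, Ankrd1 groups and correlations were not simulated.

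The 9 members and the other gene lists were chosen with earlier results of these data known. The text names the members in full, from the lists of partners, regulators and other myosins the genes past 1.5-fold (1 result under TMM factors is not reported here), and for Myh7, Myh6, Myl2 and Myl7 the genes with the highest Spearman correlation. Thra and Tead1 were named after their values were seen. Of the marker lists only sums, medians and counts of genes are given, with values of Nppa, Sln and Bmp10. Values of Kcnj3, Stard10 and Gsn are given too, and these genes were named after their values were seen. Positions come from GENCODE M21 (GRCm38), whose IDs match those of the files for all 9 genes, and sequences from RefSeq. Alternatives were other denominators and scaling factors, spot and gene filters, equal weight per spot, spots with most UMIs left out, other depths, other Ankrd1 thresholds and grouping by the injury genes.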

Additional observations from a re-analysis of the deposited data

How the results depend on the processing

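No paired analysis was possible because each group has 1 section, and leaving out a section was not possible. The first set of values held the Myh7 levels, the Myh7 to Myh6 balance and the shares of Myl4 and Myl7. Taken under every other setting run, 61 of these stayed within their counting interval and 58 did not. Of the second set, the levels of the other members and the Mhrt to Myh6 ratio, 192 stayed and 132 did not. The sign changed in 4 values of the first set and 15 of the second, of which 3 and 6 belong to reported values whose interval included 0. The causes were not tested. Depth limits Mhrt, Myh7b, Myl4 and Myl7, which rest on 3 to 358 UMIs per section. Leaving out spots rich in Sln was not run, since no spot reached 3 Sln UMIs.

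The Myh7 level kept its direction between the sections under every denominator, scaling, filter and weighting. For I/R over sham (1.59) it was 1.48 without the 13 mitochondrial genes, 1.98 per cardiomyocyte marker UMI and 1.35 with TMM or size factors. For SBP over I/R (0.98) these settings gave 1.03, 0.75, 1.14 and 1.14, and 1.04 came without the 1% of spots with most Myh7. For SBP over sham (2.57) they gave 2.51, 2.73, 2.49 and 2.50, and 2.64. The Myh7 share moved to 5.02% (I/R), 8.83% (SBP) and 1.27% (sham) without those spots, and with equal weight for each spot to 9.19% in SBP and 1.35% in sham. The Myh7 to Myh6 ratio with equal weight was 2.14 (I/R over sham) and 0.75 (SBP over I/R), the latter being 0.88 without the spots with most Myh7. The Myl7 share was 0% in all 3 sections without the 1% of spots with most Myl7. That outcome was fixed in advance, since the 3 or 4 Myl7 UMIs of a section all lie in the spots left out. These values count among those that left their interval.

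The values by Ankrd1 moved more. Myh7 in Ankrd1-high over other spots of I/R (0.67) was 0.84 and 0.79 at the sham 90th and 99th percentile, 0.54 without mitochondrial genes, 1.01 per cardiomyocyte marker UMI and 0.10 with spots grouped by injury genes. In SBP (-0.05) it was 0.092 and 0.044 at the 90th and 99th percentile, -0.13 without mitochondrial genes, 0.22 per cardiomyocyte marker UMI and -0.12 with Ankrd1 per nuclear UMI. In sham (0.22) it was 0.56 per cardiomyocyte marker UMI and -0.069 with injury genes. SBP over I/R within Ankrd1-high spots (0.48) was 0.58 and 0.34 at those percentiles, 0.56 without mitochondrial genes, 0.23 per cardiomyocyte marker UMI, 0.36 with Ankrd1 per nuclear UMI and 0.86 with injury genes. Within other spots (1.21) it was 1.33 and 1.09 at those percentiles, 1.02 per cardiomyocyte marker UMI and 1.03 with injury genes. The Myh7 to Myh6 ratio between Ankrd1-high and other spots (1.45 in I/R, 0.67 in SBP) was 1.67 at the 90th percentile and 1.35 with Ankrd1 per nuclear UMI in I/R, and 0.75, 0.80, 0.59 and 0.77 in SBP at the 90th and 99th percentile, with Ankrd1 per nuclear UMI and with injury genes.

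Spots past the sham percentile of the Myh7 share were 41.4% in I/R and 70.1% in SBP without thinning, 21.9% and 53.2% at 3000 UMIs, and 25.7% in I/R with at least 50 heavy chain UMIs. Per cardiomyocyte marker UMI the sign changed for SBP over I/R of Mybpc3 (-0.040) and Myh6 (-0.054), for I/R over sham of Myl3 (0.11), and for Ankrd1-high over other spots of sham for Mybpc3 (0.052) and Myl3 (0.094). Myl2 in SBP over sham, whose interval included 0, was 0.15 in that unit. Myl3 in SBP over sham changed sign without mitochondrial genes (-0.052), with TMM (-0.068) and size factors (-0.066) and with equal weight (-0.0080).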
